A study of Mus musculus with 12 samples.

Results

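Leukocyte integrins, their endothelial ligands and the vascular selectins were followed in mouse skin through 10 genes picked by symbol: Itgal, Itgam, Itgax, Itgb2, Itga4, Itgb7, Icam1, Vcam1, Selp and Sele. They were 10 of the 55453 genes listed, and all 10 were among the 18311 genes with enough counts to be tested. RNA-Seq was performed on skin from 12 mice in 4 groups of 3, all labelled C57/BL6. The methods name C57BL/6J for WT mice and give the KO mice as female, 8 to 12 weeks old and on the C57BL/6 background, with littermates as controls. WT PBS and WT BLM mice carried Thy-1 and received injections of PBS or bleomycin, a drug that causes fibrosis where it is injected into skin, at 10 mg/kg per day. KO PBS and KO BLM mice lacked Thy-1, a surface glycoprotein of fibroblasts, T cells and neurons, and received the same injections. The KO allele was present in every cell of the mouse and had been backcrossed for at least 10 generations. Injections ran for up to 14 days, and skin was harvested on day 21. The labels give 21 days of treatment. Each library came from 1 numbered mouse, and mice are named by that number.

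A circulating leukocyte leaves the blood in steps. P-selectin (Selp) and E-selectin (Sele) on activated endothelium slow it by binding sugar-bearing ligands. Its integrins, each a pair of an alpha and a beta subunit, then hold it to the vessel wall. The beta subunit encoded by Itgb2 pairs with the alpha subunits of Itgal (LFA-1), Itgam (Mac-1) and Itgax (CD11c), which bind ICAM-1. The alpha subunit of Itga4 pairs with the beta subunits of Itgb1 (VLA-4) or Itgb7 and binds VCAM-1. Itgal is used by lymphocytes and most other leukocytes, Itgam by neutrophils and macrophages, and Itgax by dendritic cells and some macrophages. Icam1 and Vcam1 are carried by endothelium and also by fibroblasts, and macrophages can express Vcam1.

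Libraries held 26473700 to 38890450 counts (median 31494965). Thy1 itself was still counted in KO mice, at 45.6 to 96.9 CPM (counts per 1000000 of the TMM-normalized library) in KO PBS and 84.7 to 128 CPM in KO BLM mice, below every WT mouse given the same injection (WT PBS 104 to 150 CPM, WT BLM 231 to 416 CPM). Which exons the KO allele lacks is not given in the sources used here, so a count over the whole gene does not test for loss of the protein. Of 13 cell type lists, the defining genes of keratinocytes (Krt5) and fibroblasts (Col1a1) were high in every group of this skin, and Ly6g, which defines neutrophils, was at 0 CPM in the WT PBS and KO BLM mice. KO PBS 136 and KO BLM 141 stood apart from their groups. Their summed CPM over 21 hair genes was 79516 and 38252, the WT PBS mice had 50220 to 72425, and the other 7 mice had 80.6 to 6377. KO PBS 136 was the lowest of its group for 10 of the 10 adhesion genes and below every WT PBS mouse for 7, and KO BLM 141 was the lowest of its group for 7. Results that rest on these mice are given with and without them. In bulk skin, fewer cells of a type and less RNA per cell cannot be told apart.

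Promoter stretches of 3 genes are shown because NF-kappa B is known to induce Sele and Icam1 in activated endothelium and PU.1 to drive Itgam in myeloid cells. Each is the 160 bases before the RefSeq start on GRCm38.p6, and all lie on the plus strand. Capitals mark GGNNNTTCC, a loose form of the kappa B site, in Sele and Icam1, and GAGGAA, the core bound by PU.1, in Itgam, on either strand (TTCCTC is the reverse complement of GAGGAA).
Sele, chr1:164048074-164048233: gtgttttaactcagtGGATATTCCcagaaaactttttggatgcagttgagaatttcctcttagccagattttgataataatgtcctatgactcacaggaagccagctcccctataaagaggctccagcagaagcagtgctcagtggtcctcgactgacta
Icam1, chr9:21015780-21015939: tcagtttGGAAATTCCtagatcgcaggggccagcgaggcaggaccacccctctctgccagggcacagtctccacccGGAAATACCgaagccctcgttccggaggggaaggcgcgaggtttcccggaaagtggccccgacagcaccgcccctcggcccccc
Itgam, chr7:128062480-128062639: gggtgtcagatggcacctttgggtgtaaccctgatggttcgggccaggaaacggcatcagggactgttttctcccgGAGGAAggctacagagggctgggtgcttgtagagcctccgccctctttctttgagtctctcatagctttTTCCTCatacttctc
Promoters of 300 bases (250 before and 50 after the start) were found in RefSeq for 7 of the 10 genes, and Itgal, Itgb2 and Vcam1 are named only. GGNNNTTCC was present in 3 of the 7 (Sele, Selp and Icam1) and in 18.5% of the 32851 mouse promoters of that length. In Icam1 the letters that begin 153 bases before the start match this loose form on both strands. The full kappa B consensus was in 0 of the 7 and in 8.46% of all promoters. GAGGAA was in 3 of the 7 (Sele, Itgam and Itgb7) and in 28.3% of all, and TATAAA was in Sele, 49 bases before the start, in Icam1, after the start and outside the stretch shown, and in 13.6% of all. GGNNNTTCC and the reverse complement of GAGGAA share the letters TTCC. These matches describe the sequence only.

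Bleomycin was compared with PBS in WT skin first. All 10 adhesion genes rose in WT BLM mice, from 1.98-fold for Icam1 to 11.2-fold for Itgax, and each passed the test (edgeR's quasi-likelihood test, Benjamini-Hochberg adjusted p under 0.05 over all genes tested). Of all genes tested, 19.8% were called higher. In each of the 10 genes every WT BLM mouse was above every WT PBS mouse, as in 28.3% of all genes. The median log2 fold change of the 10 was 2.30, against 0.02 over all genes.

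**Figure D1:**
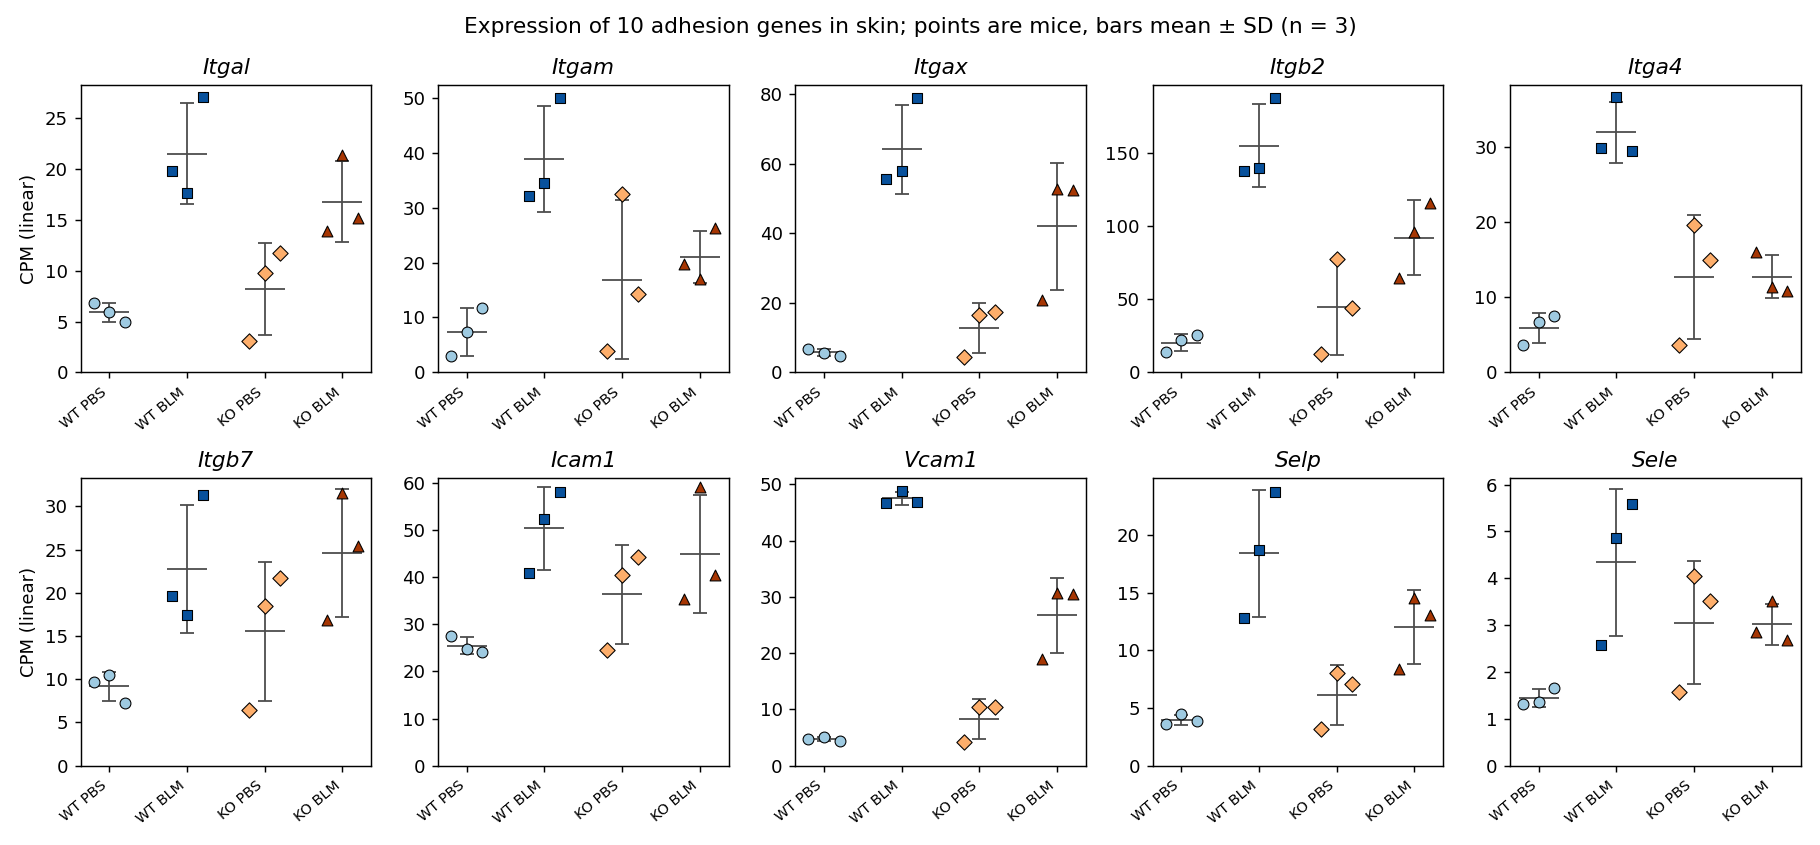
CPM (linear axis from 0) of each of the 10 genes in the 4 groups, 1 point per mouse, with the mean and SD of 3 mice as bars. WT BLM mice lie above WT PBS mice in every panel, and the lowest KO PBS point in every panel is mouse 136.

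Of the Itgb2 family, the shared beta subunit Itgb2 had the highest level per kb of exon. Itgb2 was at 13.7, 22.2 and 25.3 CPM in WT PBS mice and at 138, 139 and 188 CPM in WT BLM mice, 7.59-fold higher (log2 fold change 2.92 ± 0.55 SE, adjusted p = 0.0066). Itgax rose from 4.76, 5.66 and 6.76 CPM to 55.6, 57.9 and 78.9 CPM (log2 3.49 ± 0.52, adjusted p = 0.0041). The lowest WT BLM mouse was thus far above the highest WT PBS mouse for both genes. Itgam stood at 2.98, 7.27 and 11.8 CPM in WT PBS and at 32.1, 34.6 and 50.01 CPM in WT BLM mice, 5.27-fold higher (log2 2.40 ± 0.67, adjusted p = 0.024). Itgal rose less, from 4.94, 5.99 and 6.80 CPM to 17.6, 19.8 and 27.1 CPM, 3.64-fold (log2 1.86 ± 0.41, adjusted p = 0.011). The WT PBS mice were closest together for Itgal and most spread for Itgam, which is the least certain of the 4: without WT PBS 159, WT PBS 160 or WT BLM 147 its adjusted p was 0.077, 0.076 and 0.065.

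The alpha and beta subunits that make up the VCAM-1 and MAdCAM-1 receptors rose by different amounts. Itga4 was at 3.69, 6.71 and 7.46 CPM in WT PBS mice and at 29.4, 29.8 and 36.6 CPM in WT BLM mice, 5.35-fold higher (log2 2.42 ± 0.51, adjusted p = 0.0096). Itgb7 was at 7.26, 9.70 and 10.5 CPM in WT PBS mice and at 17.4, 19.6 and 31.3 CPM in WT BLM mice, 2.49-fold higher (log2 1.31 ± 0.42, adjusted p = 0.036). Neither gene's groups overlapped. The Itgb7 call was lost when any 1 of the 6 WT mice was left out, with an adjusted p between 0.050 and 0.118. Those fits called 13.9% to 21.5% of all genes, against 34% with all mice. Itgb1, the other partner of Itga4, was 2.19-fold higher (adjusted p = 0.0044).

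Of Icam1, Vcam1, Selp and Sele, grouped here as vessel-side genes, Vcam1 rose most. Which cells of the skin carried the Vcam1 RNA was not tested. Vcam1 was at 4.33, 4.73 and 5.0 CPM in WT PBS mice and at 46.7, 46.9 and 48.9 CPM in WT BLM mice, 10.1-fold higher (log2 3.34 ± 0.33, adjusted p = 0.0021). Icam1 had the highest level per kb of the vessel-side genes in WT PBS mice. It was at 24.2, 24.8 and 27.5 CPM in WT PBS mice and reached 40.8, 52.4 and 58.2 CPM in WT BLM mice, 1.98-fold higher (log2 0.99 ± 0.25, adjusted p = 0.017). The 95% intervals of these log2 changes, 2.62 to 4.07 for Vcam1 and 0.43 to 1.54 for Icam1, did not overlap. Selp rose from 3.62, 3.898 and 4.47 CPM to 12.8, 18.7 and 23.8 CPM (log2 2.20 ± 0.36, adjusted p = 0.0049). Sele, the lower of the selectins per kb, rose from 1.32, 1.35 and 1.66 CPM to 2.58, 4.86 and 5.58 CPM (log2 1.59 ± 0.38, adjusted p = 0.014). WT BLM 145 was the lowest WT BLM mouse for Icam1, Selp and Sele. Without WT PBS 159 or WT PBS 160 the calls of Itgam, Itgb7, Icam1 and Sele were lost, which left 6 of 10. Calls fell over all genes too: 9.15% and 8.35% were called higher in these fits, against 19.8% with all mice.

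Levels between genes were compared as CPM per kb of exon. In WT PBS mice Itgb2 led at 6.68 ± 1.97 (SD, n = 3), followed by Icam1 at 5.85 ± 0.41 and Itgb7 at 3.31 ± 0.61, and the ranges of the first 2 overlapped. Below them came Itgam at 1.46, Itgax at 1.19, Selp at 0.91 and Itgal at 0.90 CPM per kb, in which each overlapped its neighbour. Vcam1 at 0.53, Sele at 0.49 and Itga4 at 0.43 CPM per kb formed the lowest set, again with overlapping neighbours. In WT BLM mice Itgb2 was at 50.8 ± 9.29 CPM per kb and lay apart from the next gene, Itgax, at 13.4 ± 2.68. Icam1 at 11.6, Itgb7 at 8.22 and Itgam at 7.74 CPM per kb followed, and Itgax, Icam1, Itgb7 and Itgam overlapped as neighbours. Vcam1 then stood at 5.36, Selp at 4.17, Itgal at 3.28, Itga4 at 2.28 and Sele at 1.49 CPM per kb. So Vcam1 ranked 8 of 10 in WT PBS and 6 of 10 in WT BLM mice, and Itgax moved from 5 to 2. KO BLM mice kept Itgb2 first, at 30.2 ± 8.49 CPM per kb, apart from Icam1 at 10.3 ± 2.87, and Sele at 1.03 ± 0.15 and Itga4 at 0.91 ± 0.20 CPM per kb were the lowest and overlapped.

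The same drug was then compared with PBS in KO skin. No adhesion gene passed the test in KO BLM against KO PBS mice (0 of 10, with 0.306% of all genes called in either direction), 4 of 10 had an unadjusted p under 0.05 in edgeR (20% of all genes did), and DESeq2 called Itgax and Vcam1 (2 of 10, with 5.95% of all genes called). The median log2 difference of the 10 was 0.82, against -0.01 over all genes. In Itgal, Itgax, Vcam1 and Selp every KO BLM mouse was above every KO PBS mouse, 4 of 10 against 10.8% of all genes. Without KO PBS 136, edgeR called Itgax and Vcam1 (9.25% of genes called higher), without KO BLM 141 it called the same 2 genes (3.34%), and without both mice it called Itgax, Vcam1 and Selp (13.5%). With all mice and the hair list as a covariate it called Itgal, Itgax, Itgb2, Itgb7, Vcam1 and Selp (9.19% of all genes called). Itgam, Itga4, Icam1 and Sele were not called in that fit.

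Vcam1 came closest to the threshold. It was at 4.25, 10.4 and 10.4 CPM in KO PBS mice and at 19.0, 30.5 and 30.6 CPM in KO BLM mice (log2 difference 1.67 ± 0.31, adjusted p = 0.054). Itgax was at 4.32, 16.6 and 17.3 CPM in KO PBS mice and at 20.8, 52.5 and 52.7 CPM in KO BLM mice (log2 1.72 ± 0.49, adjusted p = 0.13). The low mice in both genes were KO PBS 136 and KO BLM 141. Selp was at 3.16, 7.12 and 8.06 CPM in KO PBS and at 8.42, 13.04 and 14.6 CPM in KO BLM mice (log2 0.97 ± 0.35, adjusted p = 0.18). Itgal was at 3.12, 9.77 and 11.7 CPM in KO PBS and at 13.9, 15.2 and 21.4 CPM in KO BLM mice (log2 1.03 ± 0.40, adjusted p = 0.19).

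The groups overlapped in the other 6 genes. Itgb2 was at 12.4, 44.0 and 77.3 CPM in KO PBS mice and at 64.5, 96.0 and 116 CPM in KO BLM mice (log2 1.05, 95% CI -0.09 to 2.18). Itga4 was at 3.59, 14.9 and 19.6 CPM in KO PBS and 10.9, 11.4 and 16.0 CPM in KO BLM mice (log2 0.00, 95% CI -1.07 to 1.08). Without KO PBS 136 the Itga4 difference was -0.44 and that of Itgam -0.15, and the Itga4 value, near 0, also turned below 0 under other settings. Sele was at 1.56, 3.52 and 4.06 CPM in KO PBS and 2.69, 2.85 and 3.50 CPM in KO BLM mice (log2 -0.02, 95% CI -0.83 to 0.80). Itgam (0.32, 95% CI -1.10 to 1.73), Itgb7 (0.66, 95% CI -0.25 to 1.57) and Icam1 (0.30, 95% CI -0.24 to 0.85) had log2 differences above 0 with intervals that included 0. These intervals leave room for changes in either direction.

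**Figure D2:**
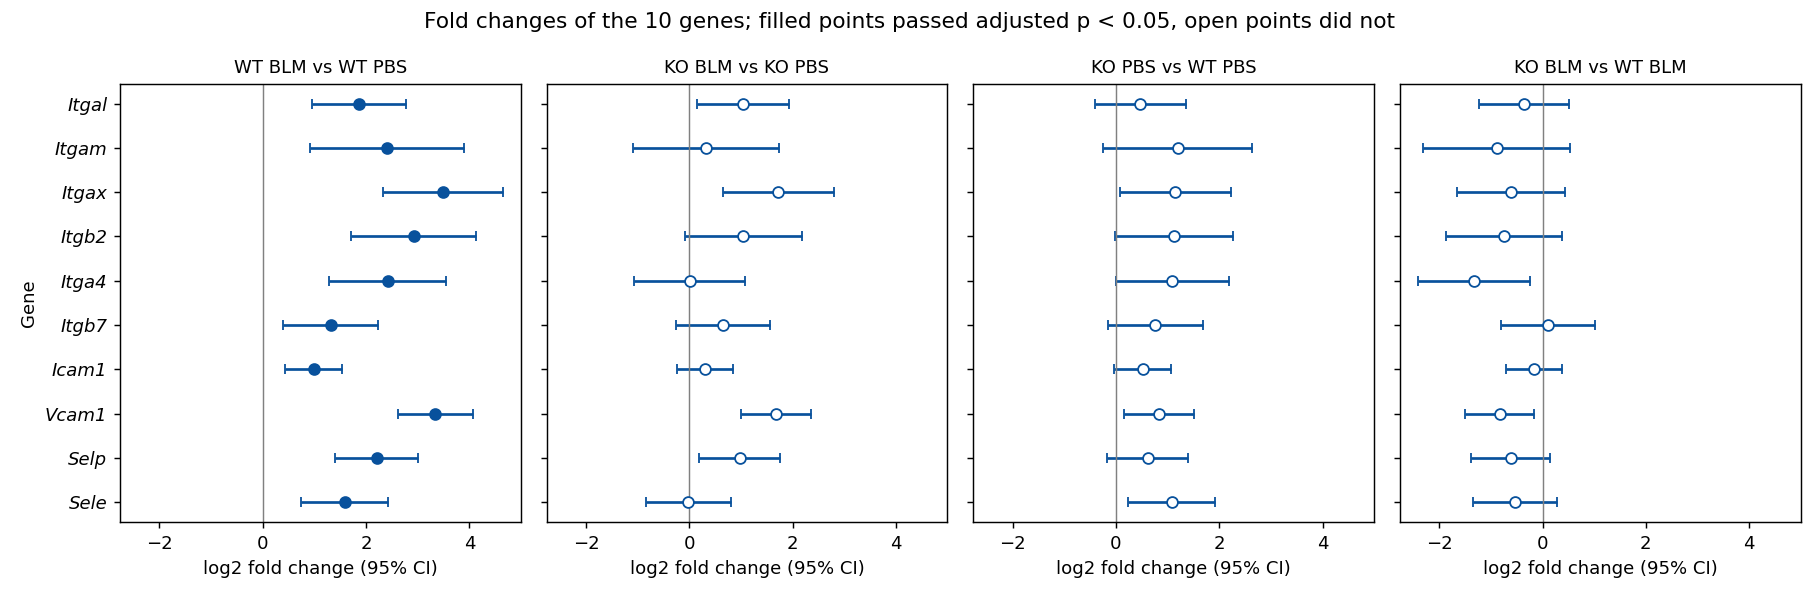
Log2 fold change (x axis) of the 10 genes in the 4 comparisons between groups, with 95% confidence intervals from edgeR as bars. Filled points passed an adjusted p of 0.05, which were all 10 in WT BLM against WT PBS and 0 in the other panels.

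Loss of Thy-1 was examined in skin given PBS. KO PBS mice had a higher mean than WT PBS mice for 10 of the 10 genes, by 0.48 (Itgal) to 1.19 (Itgam) on the log2 scale, but 0 of 10 passed edgeR's test (0.0655% of all genes were called), 4 of 10 had an unadjusted p under 0.05 (20.4% of all genes), and DESeq2 called 0. No gene's groups were apart, against 18.9% of all genes apart in either direction. KO PBS mice were widely spread: KO PBS 137 and 139 were above every WT PBS mouse for 10 of the 10 genes, and KO PBS 136 was not for any. Itgb2, at 12.4 CPM in KO PBS 136 and 44.0 and 77.3 CPM in the other 2, shows the pattern. Without KO PBS 136, 10 of 10 genes were called higher, with 17.8% of all genes called higher and 18.8% lower. In that fit Itgam was 1.66 higher (adjusted p = 0.027), Itgb2 1.57 (adjusted p = 0.0060), Itgax 1.56 (adjusted p = 0.0080), Itga4 1.53 (adjusted p = 0.0038), Sele 1.39 (adjusted p = 0.0080) and Vcam1 1.15 (adjusted p = 0.0023) on the log2 scale. Leaving out this 1 mouse thus changed the call of all 10 genes. KO PBS 136 was the lowest of its group for 10 of the 10 genes, so each KO PBS mean rises without it. That fit also leaves KO PBS with 2 mice. With KO PBS 137 or 139 left out instead, 0.0428% and 0.0321% of all genes were called. With all mice and the hair list as a covariate, 7 of the 10 differences turned below 0, among them Itgal (-0.66), Itgam (-0.56) and Itgb2 (-0.49). In that fit 0 of the 10 were called, against 0.0546% of all genes. The covariate leans on KO PBS 136 and KO BLM 141 here too.

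Thy-1–KO and WT skin were also compared after bleomycin. KO BLM mice had lower means than WT BLM mice for 9 of the 10 genes (median log2 difference -0.61, against -0.03 over all genes), and Itgb7 was the exception at 0.11. With all mice, 0 of 10 passed edgeR's test (0.0928% of all genes were called), 2 of 10 had an unadjusted p under 0.05 (16.6% of all genes) and DESeq2 called 0. With the hair list as a covariate 7 of the 10 turned above 0, among them Itgal (0.57), Itgax (0.42) and Itgb2 (0.42). Each of these 7 had an adjusted p of 0.42 or more (0.137% of all genes were called). Every KO BLM mouse was above every WT BLM mouse in 21 of 21 hair genes, so hair and group go together and this fit cannot separate them. In 5 of 10 genes (Itgam, Itgax, Itgb2, Itga4 and Vcam1) every KO BLM mouse was below every WT BLM mouse, and 27.5% of all genes were apart in either direction. Itga4 differed most, at 10.9, 11.4 and 16.0 CPM in KO BLM and 29.4, 29.8 and 36.6 CPM in WT BLM mice (log2 -1.32 ± 0.49, adjusted p = 0.26). Vcam1 was at 19.0, 30.5 and 30.6 CPM in KO BLM and 46.7, 46.9 and 48.9 CPM in WT BLM mice (log2 -0.83 ± 0.30, adjusted p = 0.26). Both were called lower when KO PBS 136 was left out of the model, a mouse of neither group, with the fold changes at -1.32 and -0.83 and adjusted p at 0.028 and 0.028 (6.89% of all genes were called), so the fold changes were the same to 2 decimals and the adjusted p were not. Icam1 (log2 -0.17, 95% CI -0.71 to 0.38) and Itgb7 (0.11, 95% CI -0.80 to 1.02) differed least.

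Whether bleomycin changed these genes differently in KO and WT skin was tested by a contrast of its own (the KO change minus the WT change). It was below 0 for 10 of the 10 genes, from -0.65 (Itgb7) to -2.42 (Itga4), with a median of -1.64 against -0.05 over all genes. In edgeR 0 of 10 genes passed, as did 0% of all genes, and 7 of 10 had an unadjusted p under 0.05 (31.1% of all genes). With the hair list as a covariate 7 of the 10 differences turned above 0, among them Itgb7 (1.42), Itgal (1.24) and Itgam (0.97). Each of these 7 had an adjusted p of 0.68 or more, and 0% of all genes were called in that fit. Hair and group go together in WT mice and between the BLM groups, so that fit cannot separate them. The smallest adjusted p were 0.071 for Vcam1 (-1.67 ± 0.43), 0.078 for Itga4 (-2.42 ± 0.69) and 0.094 for Sele (-1.60 ± 0.53). DESeq2 called these 3 genes (17.8% of all genes were called). Without KO PBS 136, edgeR called 9 of 10 genes, the exception being Itgb7, with 39.9% of all genes called and 19.5% called below 0. KO PBS 137 and 139 alone stood for their group in that fit. WT PBS and KO PBS mice enter this contrast as well as the comparisons within each genotype, so it shares their spread.

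Markers of other cells differed between the groups as well. In WT mice after bleomycin 19.8% of all genes were called higher and 14.1% lower, the shares to set beside the list counts below. All 5 pan-leukocyte genes were called higher there. Their summed level was 97.9 to 163 CPM in WT PBS, 496 to 781 in WT BLM, 90.6 to 414 in KO PBS and 359 to 523 CPM in KO BLM mice. Ptprc (CD45), which every leukocyte carries, was 5.28-fold higher (adjusted p = 0.0080). Of the macrophage list 8 of 10 genes rose in WT mice, among them Adgre1 (4.98-fold), and the summed level ran from 327 to 745 CPM in WT PBS, 1346 to 2219 in WT BLM, 339 to 1562 in KO PBS and 1004 to 1344 CPM in KO BLM mice. Of the T cell list 7 of 8 rose, with sums of 23.0 to 25.8 CPM in WT PBS, 64.0 to 94.0 in WT BLM, 21.4 to 56.6 in KO PBS and 61.6 to 115 CPM in KO BLM mice. The neutrophil list summed to 4.33 to 5.40 CPM in WT PBS, 20.9 to 46.8 in WT BLM, 3.46 to 8.64 in KO PBS and 12.8 to 27.7 CPM in KO BLM mice. Of its 8 genes 4 were tested, with 3 called higher in WT mice and 1, Camp, called lower (log2 -1.68, adjusted p = 0.034). Endothelial genes moved less: 3 of 8 rose, and the sums were 185 to 208 CPM in WT PBS, 162 to 426 in WT BLM, 171 to 317 in KO PBS and 227 to 267 CPM in KO BLM mice. The hair list fell in WT BLM mice, with 11 of 21 genes called lower and sums of 50220 to 72425 CPM in WT PBS, 101 to 886 in WT BLM, 80.6 to 79516 in KO PBS and 3819 to 38252 CPM in KO BLM mice. Every KO BLM mouse was above every WT BLM mouse in 21 of 21 hair genes, where 27.5% of all genes were apart in either direction. Their median log2 difference was 5.64, although 0 were called (0.0928% of all genes). In WT BLM mice 7 of 8 skeletal muscle genes rose (4895 to 5485 CPM in WT PBS, 16765 to 34554 in WT BLM, 6148 to 25224 in KO PBS and 9896 to 18904 CPM in KO BLM mice). The part of hair stage, muscle in the sample and cell numbers in the adhesion gene results was not tested. With the mean of the hair list as a covariate, 1 of 10 genes (Vcam1) was still called in WT BLM against WT PBS mice, where hair and group go together, and the share of all genes called higher was 0.0546%.

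**Figure D3:**
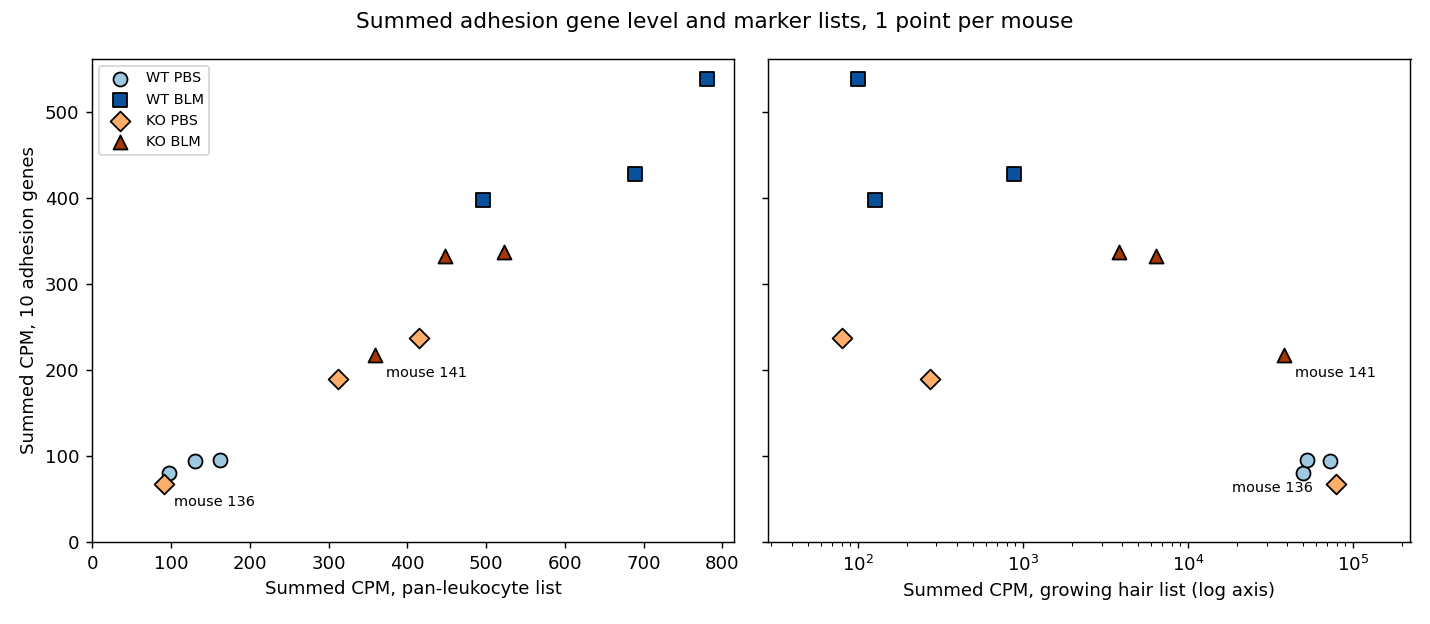
Summed CPM of the 10 adhesion genes (y axis) against the summed CPM of 5 pan-leukocyte genes (left, linear axis) and of 21 hair genes (right, log axis), 1 point per mouse. The adhesion sum was 80.8 to 95.6 CPM in WT PBS, 397 to 539 in WT BLM, 67.2 to 237 in KO PBS and 217 to 338 CPM in KO BLM mice, and mouse 136 lies with the WT PBS mice in both panels.

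Counts were also set against a marker gene of the same library, Ptprc for leukocyte genes and Pecam1 (CD31), a junction protein of endothelium that leukocytes and platelets also carry, for vessel-side genes. The ratios are given as a description, and no test of them was run. Per 100 Ptprc counts, Itgb2 had 88.9, 89.6 and 93.1 counts in WT PBS and 97.9, 152 and 153 in WT BLM mice. KO PBS mice had 74.6, 77.1 and 100 Itgb2 counts and KO BLM mice 103, 138 and 248. Itgb2 was thus higher relative to Ptprc in each bleomycin group than in the PBS group of its genotype. Itgb7 lay the other way in WT mice, at 26.7 to 63.5 counts per 100 of Ptprc in WT PBS and 12.2 to 25.4 in WT BLM mice, and overlapped in KO mice (23.9 to 40.2 in KO PBS and 26.9 to 54.3 in KO BLM mice). Itgal had 18.2 to 44.5 in WT PBS, 12.4 to 21.98 in WT BLM, 12.7 to 19.8 in KO PBS and 22.3 to 32.5 in KO BLM mice, and Itgam overlapped within both genotypes (19.5 to 43.4, 24.3 to 40.5, 23.9 to 42.1 and 24.6 to 56.2, in that order). Itga4 stayed near its marker, at 24.1 to 27.4 counts per 100 of Ptprc in WT PBS, 23.8 to 33.0 in WT BLM, 22.3 to 25.4 in KO PBS and 16.4 to 25.6 in KO BLM mice, and the groups overlapped. Itgax had 17.5 to 44.2 counts per 100 of Ptprc in WT PBS, 40.7 to 64.0 in WT BLM, 21.5 to 29.2 in KO PBS and 33.3 to 112 in KO BLM mice, so that only the KO groups were apart.

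Vcam1 had 9.36, 9.83 and 10.1 counts per 100 of Pecam1 in WT PBS mice and 30.4, 40.9 and 74.7 in WT BLM mice. In KO mice it had 10.1, 11.5 and 12.7 after PBS and 20.4, 35.8 and 38.2 after bleomycin. Vcam1 was therefore higher relative to Pecam1 in both bleomycin groups. Selp likewise had 7.15 to 9.01 counts per 100 of Pecam1 in WT PBS, 11.6 to 20.7 in WT BLM, 7.50 to 8.89 in KO PBS and 9.05 to 18.2 in KO BLM mice. Sele overlapped within both genotypes. Per 100 of Pecam1 it had 2.61 to 3.76 counts in WT PBS and 3.02 to 4.86 in WT BLM mice. In KO mice Sele had 3.71 to 4.48 after PBS and 3.06 to 4.37 after bleomycin. Icam1 overlapped between all groups on this scale, at 49.9 to 54.9 in WT PBS, 32.6 to 65.2 in WT BLM, 44.7 to 58.1 in KO PBS and 38.0 to 73.8 in KO BLM mice. The selectins also shifted against each other: Sele had 30.1 to 42.5 counts per 100 of Selp in WT PBS, 20.2 to 26.0 in WT BLM, 49.4 to 50.4 in KO PBS and 20.6 to 33.8 in KO BLM mice. Each PBS group lay above its bleomycin group in this ratio. Itgb7 had 97.3 to 263 counts per 100 of Itga4 in WT PBS and 47.7 to 106 in WT BLM mice, which overlapped, and 94.2 to 181 in KO PBS and 105 to 278 in KO BLM mice.

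**Figure D4:**
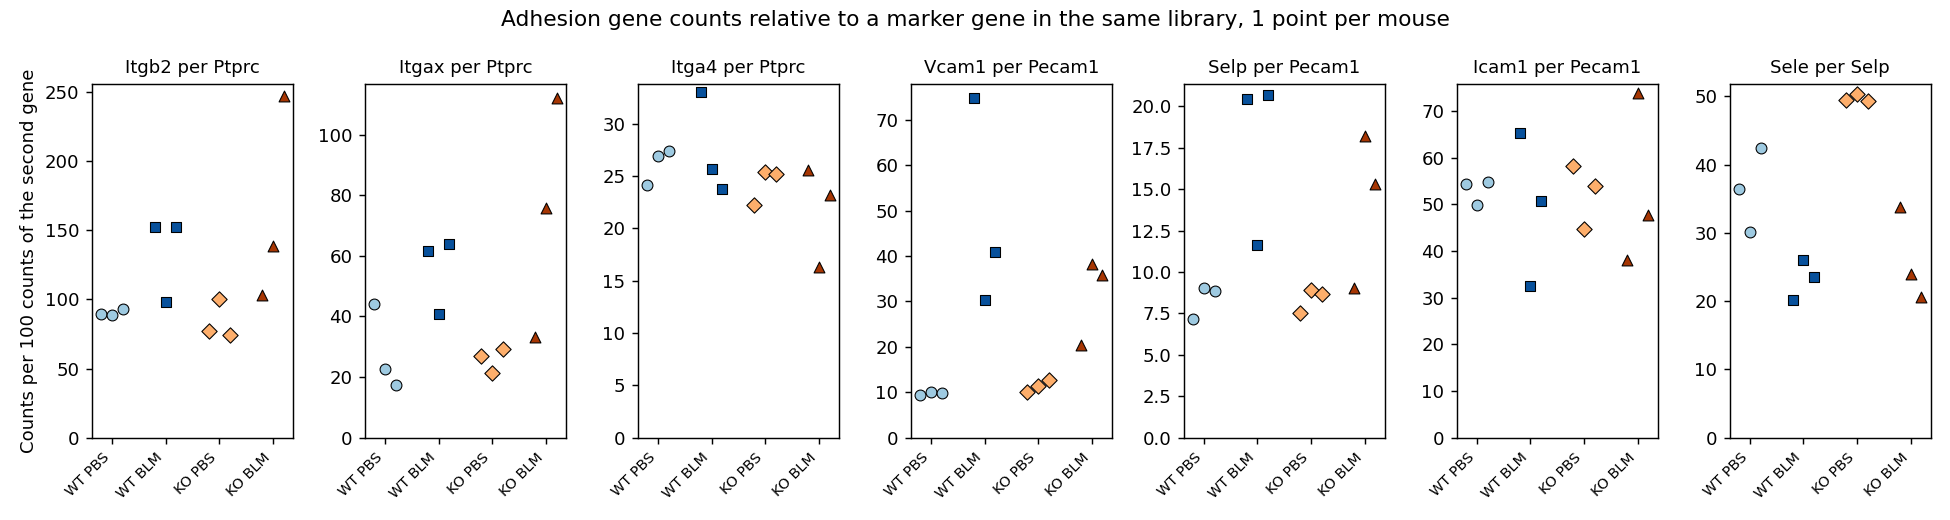
Counts of a gene per 100 counts of a second gene in the same library (y axis, linear from 0), 1 point per mouse. Vcam1 per Pecam1 was 9.36 to 10.1 in WT PBS and 30.4 to 74.7 in WT BLM mice, and Icam1 per Pecam1 overlapped between all groups.

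Genes that act with these molecules were read from 3 lists of 54 genes, 49 of which were tested. In WT BLM against WT PBS mice, 30 of the 49 were called higher and 4 lower, against 19.8% and 14.1% of all genes. Among ligands and counter-receptors, 8 of 14 rose and 1 fell, with a median of 0.89 on the log2 scale. Selplg, the ligand of P-selectin, was 4.64-fold higher, from 13.5 to 18.8 CPM in WT PBS to 58.1 to 98.9 CPM in WT BLM mice (adjusted p = 0.0076). Fut7, the fucosyltransferase that builds selectin ligands, was 5.02-fold higher (adjusted p = 0.017), and Spn (CD43) 4.40-fold (adjusted p = 0.0078). Gcnt1, which branches the sugar chains that carry those ligands, was the member that fell, with a log2 change of -1.57 (adjusted p = 0.033). Itgad, Icam4, Madcam1 and Glycam1 had too few counts to be tested, which leaves the MAdCAM-1 ligand of the Itga4 and Itgb7 pair unread.

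Integrin activation genes, which switch integrins to their binding form or carry the signal, rose in 14 of 18 cases and fell in 0 (median 1.39). Fermt3, the kindlin of blood cells, was 2.72-fold higher (adjusted p = 0.0060), and Tln1, talin, 1.71-fold (adjusted p = 0.0079). Fyb (4.76-fold), Vav1 (4.78-fold) and Lcp2 (5.09-fold), signaling proteins of leukocytes, rose with adjusted p from 0.0041 to 0.0081. Among 17 endothelial junction and transmigration genes, 8 rose and 3 fell (median 0.76). Jam3 (3.36-fold) and Pecam1 (2.34-fold), which leukocytes meet at the junction, were higher, as were Msn (1.77-fold) and Sipa1 (1.73-fold). Ocln, a tight junction protein of epithelium and endothelium, fell, with a log2 change of -1.19 (adjusted p = 0.015). In the other 3 comparisons and the difference of responses, 0 of the 49 were called in edgeR, while KO BLM against KO PBS mice gave 9 (18.4%) with an unadjusted p below 0.05, against 20% of all genes, and DESeq2 called 2 there, against 5.95% of all genes. In KO PBS against WT PBS there were 12 (24.5%, against 20.4% of all genes), and DESeq2 called 1 (3.69% of all genes). In KO BLM against WT BLM there were 12 (24.5%, against 16.6%), and DESeq2 called 4 (2.99% of all genes). For the difference of responses there were 18 (36.7%, against 31.1%), and DESeq2 called 8 (17.8% of all genes).

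**Figure D5:**
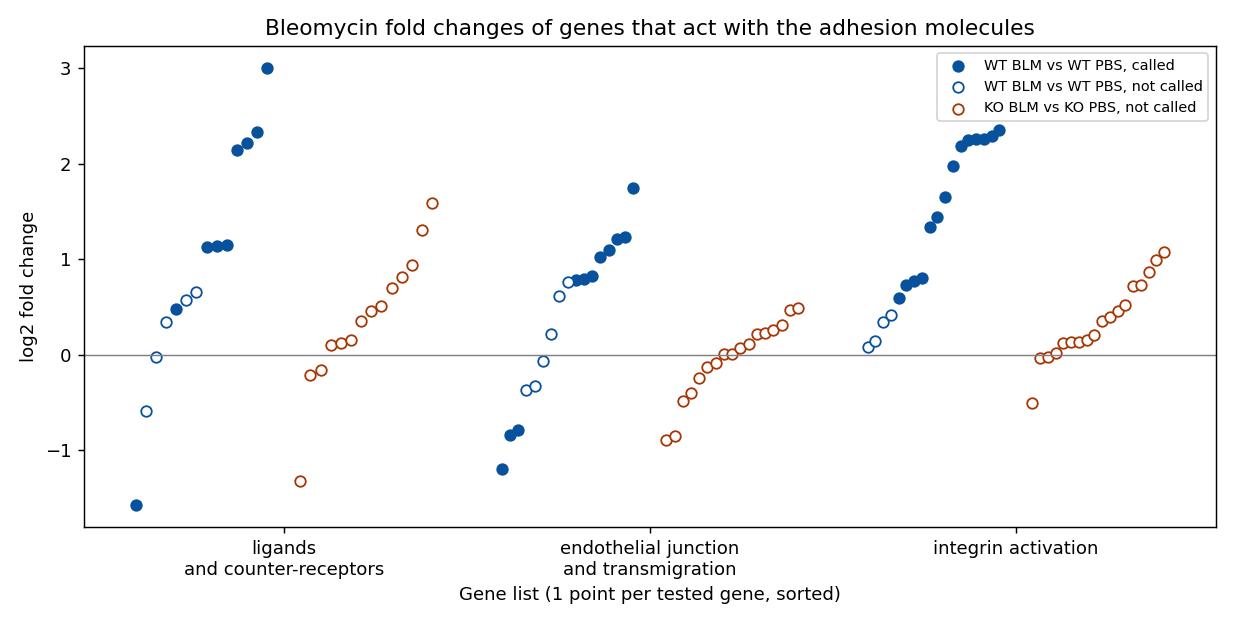
Log2 fold change (y axis) of each tested gene in the 3 lists, sorted within a list, for WT BLM against WT PBS (blue) and KO BLM against KO PBS (brown). Filled points passed an adjusted p of 0.05: 34 of 49 in WT mice and 0 in KO mice.

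Across the 12 mice the 10 genes varied together. Pearson's r of log2 CPM over 45 pairs ranged from 0.71 (Itga4 with Itgb7) to 0.98 (Itgax with Vcam1), with a median of 0.87. The mice share their group differences, hair stage and leukocyte level, so r describes the libraries and carries no test. Among the 5 tested genes most like Itgb2 were Ncf4 (r = 0.99), Dpep2, Slc11a1 and Tmem37, and the 5 most like Vcam1 were F7 (r = 0.99), Cd72, Kcnn4, Bin2 and Tfpi2.

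Positions on GRCm38 show which of these counts could be shared with another gene. Itgal (chr7:127296260-127335138), Itgam (chr7:128062640-128118491) and Itgax (chr7:128129547-128150657) lie on chromosome 7, and Sele (chr1:164048234-164057677) and Selp (chr1:164115264-164150026) are neighbors on chromosome 1, all on the plus strand. Itgb2 is at chr10:77530252-77565708, Itga4 at chr2:79255426-79333123 and Icam1 at chr9:21015985-21028817 on the plus strand, and Itgb7 at chr15:102215995-102231944 and Vcam1 at chr3:116109949-116129688 on the minus strand. Itgam shares 3450 exon bases with the gene model Gm49368 on the same strand, and its level is uncertain to that extent. Gm49368 had 0 to 2 counts per mouse, against 88 to 1524 for Itgam. Itga4 shares 1124 exon bases with Cerkl on the other strand, which had 6 to 43 counts, against 108 to 1121 for Itga4. Icam1, Vcam1 and Selp overlap antisense or noncoding models with at most 21 counts per mouse. Use of strand in the counting is not given in the sources used here.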

How the data were processed

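Skin RNA from 12 mice was sequenced as stranded mRNA libraries by the authors, who deposited read counts per gene, whole numbers without normalization, for 55453 symbols. Per the labels' processing notes, the build was GRCm38.p6 and MultiQC 1.7 was used. The aligner and counter are not given in the sources used here. Mice were grouped by title. No 2 libraries of a group agreed within sampling noise.

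Genes were kept by filterByExpr (10 counts in enough mice, 15 in all), scaled by TMM, then fitted with edgeR 4.0.16 (R 4.3.3, limma 3.58.1) with a quasi-likelihood model of 4 group means. The 4 comparisons and the difference of responses were contrasts, with Benjamini-Hochberg adjustment over 18311 genes at 0.05. The biological coefficient of variation was 34.9%. The prior count of log2 CPM was 2. With 26473700 to 38890450 counts per mouse, the spread between mice within groups sets the standard errors. Intervals are 95%, and p-values set each difference against that spread, which the fit pools over all 4 groups. The steps were tested on simulated data.

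The adhesion genes and the lists were chosen with earlier results of these data known. The text names all 10 genes, up to 5 genes of each pathway list with the smallest p in WT BLM against WT PBS, the first gene of each cell type list, and the 5 genes most like Itgb2 and Vcam1, except a few that are not reported here. Gcnt1, Camp, Epcam, Pdgfra, Dcn, Pecam1 as a denominator and genes untested for low counts were named after their values were seen. Positions and exon lengths come from GENCODE M21 and promoters from RefSeq, both on GRCm38. The motif GGNNNTTCC was added after the promoters had been read. Alternatives were DESeq2 1.42.0, RLE and upper-quartile normalization, no filter, a mean of at least 1 CPM, only the groups compared, each mouse left out, KO PBS 136 and KO BLM 141 left out together, and the hair list as a covariate.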

Additional observations from a re-analysis of the deposited data

How the results depend on the processing

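No paired analysis was possible because no mouse number occurs in more than 1 group. The 10 calls in WT BLM against WT PBS mice held with DESeq2, RLE, upper-quartile normalization, both filters and only the groups compared. The hair covariate left 1 of 10 (0.0765% of all genes called, and 0 of 49 pathway genes, from 34). Leaving out a mouse gave 6 to 10 (16 to 36 pathway genes), with 13.9% to 45.7% of all genes called. Members called in KO BLM against KO PBS, 0 with all mice, were 1 without a filter (0.507% of all genes called), 2 in DESeq2 (5.95%) and 6 with the hair covariate (9.19%). They were 0 to 2 with a mouse left out (14% without KO PBS 136) and 3 without both KO PBS 136 and KO BLM 141 (22.3%). Pathway genes called there were 2 in DESeq2, 14 with the covariate, 0 to 6 with a mouse left out and 5 without both mice. In KO PBS against WT PBS, a left-out mouse gave 0 to 10 members and 0 to 31 pathway genes (36.7% of all genes called without KO PBS 136). Leaving out both gave 10 and 31 (40.9% of all genes), and DESeq2 called 1 pathway gene (3.69%). In KO BLM against WT BLM these were 0 to 2 and 0 to 5 (6.89% without KO PBS 136), 2 and 2 (4.36%), and DESeq2 called 4 pathway genes (2.99%). For the difference of responses they were 0 to 9 and 0 to 27 (39.9% without KO PBS 136), 9 and 24 (38.6%). DESeq2 called 3 members and 8 pathway genes there (17.8%). The cause of these changes in calls was not tested.

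Of the called values 1 turned: Itgb7 was at -0.15 in WT BLM against WT PBS with the hair covariate and was no longer called. With that covariate Sele was at 0.38 in KO BLM against KO PBS. KO PBS against WT PBS became -0.66 for Itgal, -0.56 for Itgam, -0.24 for Itgax, -0.49 for Itgb2, -0.018 for Itga4, -0.38 for Itgb7 and -0.21 for Selp. KO BLM against WT BLM became 0.57 for Itgal, 0.40 for Itgam, 0.42 for Itgax, 0.42 for Itgb2, 0.24 for Icam1, 0.025 for Selp and 0.015 for Sele. The difference of responses became 1.24 for Itgal, 0.97 for Itgam, 0.66 for Itgax, 0.91 for Itgb2, 1.42 for Itgb7, 0.21 for Icam1 and 0.23 for Selp. All of these values with the hair covariate had an adjusted p of 0.42 or more. The covariate leans on KO PBS 136 and KO BLM 141. In WT mice and between the BLM groups hair and group go together, so the covariate cannot separate them. Itga4 in KO BLM against KO PBS, at 0.00 with all mice, was -0.026 in DESeq2, -0.0071 with a mean of at least 1 CPM, -0.039 without a filter, -0.027 with RLE, -0.029 with upper-quartile normalization, -0.64 without both mice and -0.44 to 0.46 with a mouse left out. In that comparison Itgam was -0.11 without both mice and -0.15 to 1.21 with a mouse left out, and Sele was -0.33 to 0.24. In KO BLM against WT BLM, a left-out mouse put Icam1 at -0.41 to 0.015 and Itgb7 at -0.11 to 0.41. Over 990 member values under the alternatives, 863 kept direction and side, 23 lost a call, 61 gained one and 43 turned.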

Other observations

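Marker lists of cells that were not part of the comparisons gave the following levels. The dendritic and Langerhans cell list summed to 220 to 245 CPM in WT PBS, 139 to 210 in WT BLM, 203 to 283 in KO PBS and 234 to 287 CPM in KO BLM mice, and 0 of its 6 genes were called in any comparison. Most of the sum came from Epcam, which keratinocytes also express, at 205 ± 14.3 CPM in WT PBS and 135 ± 39.8 CPM in WT BLM mice, while 5 of the 6 genes had a log2 difference above 0 in WT BLM against WT PBS mice (median 0.75). Flt3, which defines that list, was at 3.38 ± 0.79 CPM in WT PBS and 7.38 ± 4.54 CPM in WT BLM mice (SD, n = 3), and the groups overlapped. The mast cell list had 1 gene called higher and 1 lower of 5 in WT BLM against WT PBS mice (19.8% and 14.1% of all genes), with Cpa3 at 15.9 ± 1.67 and 37.2 ± 20.7 CPM. In the platelet and megakaryocyte list, whose cells also store P-selectin, 0 of 3 tested genes were called in that comparison, and Pf4 was at 13.2 ± 7.53 CPM in WT PBS and 34.9 ± 12.9 CPM in WT BLM mice.

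The B cell list had 1 of 2 tested genes called higher in WT BLM mice, where 19.8% of all genes were called higher. In the fibroblast list 4 of 6 genes rose, among them Col1a1 (4.24-fold). Pdgfra (log2 0.06) and Dcn (log2 -0.21) of that list were not called. In the keratinocyte list 1 of 6 rose, which is near the 19.8% of all genes. Krt5 was at 3723 ± 192 CPM in WT PBS and 4452 ± 1709 CPM in WT BLM mice. Krt25, a keratin of the growing hair root, was at 7409 ± 732 CPM in WT PBS and 54.7 ± 85.1 CPM in WT BLM mice.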
